A study of Mus musculus with 6 samples.

Results

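Transcripts of 10 fat cell genes were examined in ischemic muscles of GPR174-knockout (Gpr174-/Y) and wild-type (WT) mice. The genes were taken by name from the 18089 genes of the deposited table, with no measured value in the rule, and each was the sum of its RefSeq transcripts. They comprised the secreted factors *Adipoq*, *Lep*, *Retn* and *Cfd*, the lipid droplet proteins *Plin1* and *Cidec*, the fatty acid genes *Fabp4* and *Scd1*, and the transcription factors *Pparg* and *Cebpa*. RNA came from gastrocnemius muscle of 3 WT and 3 Gpr174-/Y mice, all males of the C57BL/6 strain aged 8 to 10 weeks, 7 days after hindlimb ischemia (HLI), in which a stretch of the femoral artery was tied off and removed. The Gpr174-/Y mice carry a disrupted X-linked *Gpr174*, a lysophosphatidylserine receptor gene, and the methods name no tissue-specific driver. All 6 libraries came from operated limbs, so the comparison is of genotype within ischemic muscle and not of ischemic with healthy muscle.

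Fat cells hold triglyceride in a large lipid droplet and release hormones such as adiponectin and leptin. In skeletal muscle they lie between the fibres, and in injured muscle they can form from fibro-adipogenic progenitors, the mesenchymal cells that also make the interstitial matrix. Fat cell formation is driven by PPARγ and C/EBPα, which maintain each other's expression and switch on the genes for lipid storage. Several of the 10 genes are also used outside fat: *Fabp4* in capillary endothelium and macrophages, *Scd1* in many tissues, and *Pparg* and *Cebpa* in myeloid cells.

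Totals were 18417077 to 18695013 estimated counts in WT and 19173036 to 19394469 in Gpr174-/Y libraries, where 3 counts, the least taken as detectable, equal 0.14 to 0.187 CPM (counts scaled to a common library size, with TMM factors), for counting error only. For *Gpr174*, the WT libraries held 8, 2 and 5 counts and the Gpr174-/Y libraries 1, 0 and 0. The tissue label was met by mature muscle fibre markers, whose 12 genes summed to between 55500 and 179000 CPM in every library. The fat cell label was met by its defining markers, with 275 to 1028 counts of *Adipoq* and 125 to 428 of *Plin1* per library. Replicate 2 lay between replicates 1 and 3 in 77.1% of 9972 genes with a mean of at least 10 CPM in WT and in 68.2% in Gpr174-/Y muscles. In unscaled counts, replicate 2 lay between the others for 7 of the 10 fat cell genes in WT and 8 in Gpr174-/Y muscles. In CPM, replicate 3 was the highest for 9 and 7 of the 10. Exchangeable libraries would put each replicate in the middle about equally often if genes varied independently. Genes can vary together, so these shares alone cannot decide whether replicate 2 is independent. The reason was not tested. Every standard error and p value from all 6 libraries takes the libraries as independent. If replicate 2 is not, these errors and p values are too small and the calls too many. The calls are therefore also given with replicates 1 and 3 alone, at the end.

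The promoters of the genes on which the results turn are printed from RefSeq (GRCm38.p6), as the 250 bases before a transcription start, written 5′ to 3′ on the strand of the gene. *Adipoq*, *Plin1* and *Cebpa* are shown because their RNA was higher in Gpr174-/Y muscles, *Lep* as a fat cell hormone that was not called, and *Pparg* at the start of its isoform 2, whose share of *Pparg* reads is described further on. The windows are chr16:23146286-23146535 on the plus strand for *Adipoq*, chr7:79732777-79733026 on the minus strand for *Plin1*, chr7:35119043-35119292 on the plus strand for *Cebpa*, chr6:29059971-29060220 on the plus strand for *Lep* and chr6:115421816-115422065 on the plus strand for *Pparg*. Capitals mark matches to the C/EBP letters TTGCNNAA or the TATA box letters TATAAA on either strand.
Adipoq: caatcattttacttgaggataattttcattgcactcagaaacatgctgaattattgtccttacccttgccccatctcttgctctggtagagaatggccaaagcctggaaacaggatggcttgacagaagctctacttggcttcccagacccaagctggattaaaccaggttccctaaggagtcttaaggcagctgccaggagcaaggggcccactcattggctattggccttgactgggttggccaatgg
Plin1: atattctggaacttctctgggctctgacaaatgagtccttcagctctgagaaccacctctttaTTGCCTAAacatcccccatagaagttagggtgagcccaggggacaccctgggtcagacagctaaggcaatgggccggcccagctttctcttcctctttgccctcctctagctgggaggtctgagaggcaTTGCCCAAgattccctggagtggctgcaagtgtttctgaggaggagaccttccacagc
Cebpa: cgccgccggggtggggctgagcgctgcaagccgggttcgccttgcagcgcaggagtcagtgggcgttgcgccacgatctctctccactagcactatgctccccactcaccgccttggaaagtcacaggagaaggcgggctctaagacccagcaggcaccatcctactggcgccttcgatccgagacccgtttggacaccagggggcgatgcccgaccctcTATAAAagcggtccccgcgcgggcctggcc
Lep: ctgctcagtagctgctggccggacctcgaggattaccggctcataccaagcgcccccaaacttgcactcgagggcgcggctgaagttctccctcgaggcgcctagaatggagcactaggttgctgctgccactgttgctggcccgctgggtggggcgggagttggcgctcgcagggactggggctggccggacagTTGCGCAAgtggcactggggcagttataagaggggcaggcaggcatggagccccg
Pparg isoform 2: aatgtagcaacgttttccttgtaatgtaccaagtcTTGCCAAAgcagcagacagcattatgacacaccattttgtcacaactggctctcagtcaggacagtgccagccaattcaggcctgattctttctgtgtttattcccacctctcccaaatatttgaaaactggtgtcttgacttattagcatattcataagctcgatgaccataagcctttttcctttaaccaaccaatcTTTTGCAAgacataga

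RefSeq windows were found for 8 of the 10 genes, 11 windows in all, and *Fabp4* and *Scd1* had no entry. The C/EBP letters were present 187 to 180 and 58 to 51 bases before the start of *Plin1*, 55 to 48 bases before that of *Lep* (a match that reads the same on both strands), 198 to 191 bases before 1 of 2 starts of *Cidec*, and 215 to 208 and, on the minus strand, 16 to 9 bases before the isoform 2 start of *Pparg*. They occur in 9.56% of all 32851 windows of this length. The TATA letters, present in 12.4% of all windows, lay 30 to 25 bases before the start of *Cebpa* and, on the minus strand, 29 to 24 bases before 1 of the other *Pparg* starts. Neither the PPAR-RXR letters, a direct repeat of AGGNCA with 1 base between (0.338% of all windows), nor the EGR letters GCGNGGGCG (4.70%) were in any of the 11 windows. The C/EBP letters were thus in windows of genes that were called (*Plin1*) and genes that were not (*Lep*, *Cidec*, *Pparg*), and the motifs were chosen after the expression values were known.

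Of the 10 genes, *Adipoq*, *Plin1* and *Cebpa* were higher and *Fabp4* was lower in Gpr174-/Y muscles, and *Lep*, *Retn*, *Cfd*, *Cidec*, *Scd1* and *Pparg* did not pass an adjusted p of 0.05 in edgeR's quasi-likelihood test over 14395 genes. The 4 calls in 10 stand beside a background of 54.6% of all genes tested (27.0% higher and 27.6% lower), so the share called was not above that of muscle genes at large. None of the 10 changed by more than 2-fold, where 8.28% of all genes passed both the p and the fold threshold (3.45% higher and 4.84% lower). The libraries of the genotypes did not overlap for the same 4 genes, where 65.6% of all genes did not overlap. The median log2 fold change of the 10 was 0.22, beside 0.00 over all genes. With total counts in place of TMM factors, 4 of the 10 were higher and 1 lower (median 0.49), and the median of all genes moved to 0.28. That scaling also moved the share of higher genes among all those called from 49.5% to 78.4%. Values below are therefore read against their own scaling. The calls of every list below stand beside 27.0% higher and 27.6% lower among all genes with TMM factors. With total counts, 7303 of the 14395 genes were higher and 2010 lower. In whole muscle, fewer cells of a type and less RNA per cell cannot be told apart, here and in every result that follows.

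**Figure D1:**
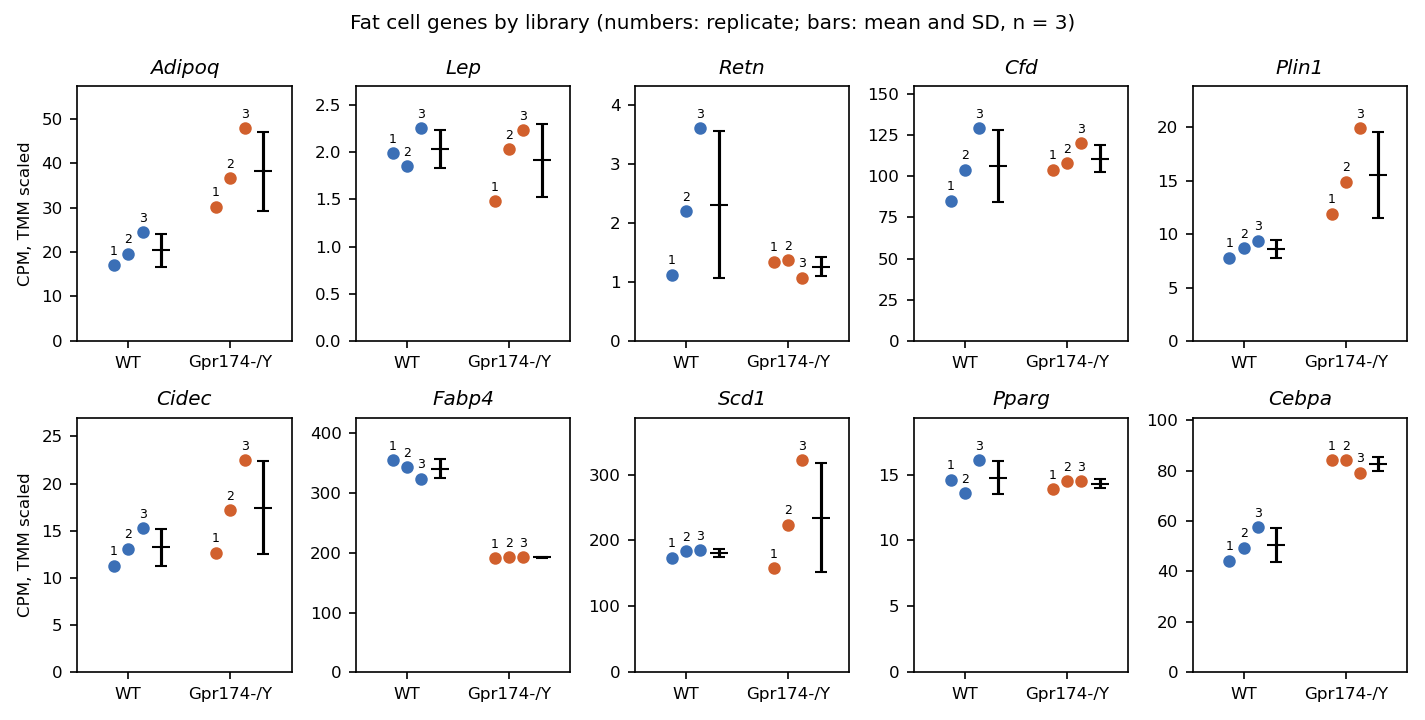
Level of each of the 10 fat cell genes in TMM-scaled CPM (y axis, from 0) in 3 WT (blue) and 3 Gpr174-/Y (orange) libraries, numbered by replicate, with the mean and SD (n = 3) as a bar. Gpr174-/Y libraries lie above all WT libraries for Adipoq, Plin1 and Cebpa and below all of them for Fabp4, and overlap with WT for the other 6 genes.

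Among the secreted factors, *Adipoq* encodes adiponectin, a hormone made by mature fat cells that raises insulin sensitivity. On chromosome 16 (GRCm38 23146536 to 23158028), it had 275, 330 and 436 counts in WT and 633, 777 and 1028 in Gpr174-/Y libraries, or 17.1, 19.6 and 24.5 CPM against 30.2, 36.6 and 47.8. Every Gpr174-/Y library was above every WT library, although the spread within each group was wide (20.4 ± 3.75 and 38.2 ± 8.90 CPM, SD, n = 3). The level was 1.87-fold higher (log2 fold change 0.90, standard error 0.20, edgeR adjusted p = 0.00817).

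*Lep*, the satiety hormone leptin, whose level rises with fat mass, did not pass the test. On chromosome 6 (29060220 to 29073877), it had 32, 31 and 40 counts in WT and 31, 43 and 48 in Gpr174-/Y libraries, which is 1.99, 1.85 and 2.25 CPM against 1.48, 2.03 and 2.23. The groups overlapped, and the log2 fold change was -0.08 (standard error 0.19, edgeR adjusted p = 0.729). At 31 to 48 counts per library, this was a gene of low depth.

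*Retn* (chromosome 8, 3655770 to 3660110) encodes resistin, a fat cell hormone of the mouse that opposes insulin. Its WT values were 1.12, 2.2 and 3.6 CPM, from 18, 37 and 64 counts, whereas the Gpr174-/Y values were 1.34, 1.37 and 1.07 CPM, from 28, 29 and 23 counts. WT varied 3.21-fold between replicates 1 and 3, and WT replicate 1 lay among the Gpr174-/Y libraries. The log2 fold change of -0.89 (standard error 0.40) did not pass (adjusted p = 0.098), but without WT replicate 1 it was -1.20 with an edgeR adjusted p of 0.00842, so that library decided the call.

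*Cfd* (chromosome 10, 79890853 to 79892655) encodes adipsin, or complement factor D, the protease that starts the alternative complement pathway by cleaving factor B. It measured 85.2, 104 and 129 CPM in WT and 104, 108 and 120 CPM in Gpr174-/Y libraries. The Gpr174-/Y values all lay inside the WT range, and the log2 fold change was 0.06 (standard error 0.15, edgeR adjusted p = 0.76). In the same complement pathway, the anaphylatoxin receptor *C3ar1* (log2 fold change 1.13), the stabilizer properdin *Cfp* (0.62) and the central component *C3* (0.48) were higher in Gpr174-/Y muscles, whereas *Cfb*, the substrate of adipsin, did not pass (0.36, edgeR adjusted p = 0.32). Macrophage markers, which moved the same way, are given further on, and their part in these differences was not tested.

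Among the lipid droplet proteins, *Plin1* encodes perilipin 1, which coats the fat cell droplet and gates lipolysis. On chromosome 7 (79720218 to 79732903, minus strand), it had 125, 146 and 167 counts in WT and 250, 316 and 428 in Gpr174-/Y libraries, or 7.78, 8.69 and 9.38 CPM against 11.9, 14.9 and 19.9. The groups did not overlap, and *Plin1* was 1.81-fold higher in Gpr174-/Y muscles (log2 fold change 0.85, standard error 0.19, edgeR adjusted p = 0.0096). *Cidec* (chromosome 6, 113424634 to 113435760, minus strand), whose protein fuses small droplets into a large one, measured 11.3, 13.1 and 15.3 CPM in WT and 12.7, 17.2 and 22.5 CPM in Gpr174-/Y libraries. Gpr174-/Y replicate 1 lay within the WT range and the other two above it. The log2 fold change of 0.40 (standard error 0.22) did not pass (edgeR adjusted p = 0.16). It passed in 3 of 17 alternatives: without Gpr174-/Y replicate 1 (0.58, edgeR adjusted p = 0.0384), and in all 6 libraries with total counts (0.67, 0.044) and with the replicate number as a block (0.38, 0.0342). The call thus turned on that library and on the scaling and model.

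*Fabp4* (chromosome 3, 10204088 to 10208576, minus strand), a carrier of fatty acids in the cytoplasm, went in the opposite direction to *Adipoq* and *Plin1*. It had 355, 343 and 324 CPM in WT and 191, 193 and 193 CPM in Gpr174-/Y libraries, from at least 4001 counts in each. The libraries of each genotype lay close together and far from those of the other. *Fabp4* was 1.77-fold lower in Gpr174-/Y muscles (log2 fold change -0.82, standard error 0.06, edgeR adjusted p = 0.000478), with the smallest standard error of the 10. Endothelial markers mostly moved the same way: 10 of 11 were lower and 1 was higher (*Vwf*, named after its value was seen). Their summed level was 1150 to 1350 CPM in WT and 718 to 814 CPM in Gpr174-/Y libraries. The most lowered were *Gpihbp1*, the capillary anchor of lipoprotein lipase (-1.29), the tight junction gene *Cldn5* (-0.97), the VEGF receptor *Kdr* (-0.91) and VE-cadherin, *Cdh5* (-0.82). Macrophages also use *Fabp4*, and their markers went the other way, with 9 of 10 higher and none lower. The part of endothelial or macrophage RNA in the *Fabp4* difference was not tested.

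*Scd1* (chromosome 19, 44394455 to 44407879, minus strand), the desaturase that makes oleate for triglyceride, measured 174, 184 and 185 CPM in WT. In Gpr174-/Y libraries it measured 158, 224 and 322 CPM, so replicate 1 lay below and replicate 3 well above the narrow WT range. The coefficient of variation was 3.41% in WT and 35.1% in Gpr174-/Y muscles, the largest among the 10 genes in the latter. The log2 fold change of 0.38 (standard error 0.23) did not pass (edgeR adjusted p = 0.208). It was 0.59 with an adjusted p of 0.03 without Gpr174-/Y replicate 1 and 0.08 with 0.687 without Gpr174-/Y replicate 3, so single libraries decided both the call and the size.

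The transcription factors differed from each other. *Cebpa* (chromosome 7, 35119293 to 35121928), which encodes C/EBPα, measured 44.2, 49.5 and 57.5 CPM in WT and 84.2, 84.1 and 79.2 CPM in Gpr174-/Y libraries. The groups did not overlap, and *Cebpa* was 1.63-fold higher in Gpr174-/Y muscles (log2 fold change 0.71, standard error 0.10, edgeR adjusted p = 0.0017). *Pparg* (chromosome 6, 115360951 to 115490399), which encodes PPARγ, measured 14.6, 13.6 and 16.1 CPM in WT and 13.9, 14.5 and 14.5 CPM in Gpr174-/Y libraries. Its Gpr174-/Y values all lay within the WT range, with a log2 fold change of -0.05 (standard error 0.08, edgeR adjusted p = 0.606). It was called higher in 2 of 17 alternatives, limma on log2(FPKM + 1) (0.23, adjusted p = 0.0477) and on log2(FPKM + 0.1) (0.26, 0.048), where the first moved the median of all genes to 0.20. The exons of *Cebpa* overlap an antisense gene, *Gm45091*, and the strand use of the counting is not given in the sources used here, so reads of the pair cannot be told apart.

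Macrophages also use *Cebpa*, and their markers moved with it. Of 10 macrophage markers 9 were higher in Gpr174-/Y muscles and none lower, and they summed to 1390 to 2150 CPM in WT and 3540 to 3570 CPM in Gpr174-/Y libraries. The 4 largest differences were those of *Gpnmb* (log2 fold change 1.62), *Itgam* (1.6), *Cd68* (1.22) and *Trem2* (1.08). The part of macrophage RNA in the *Cebpa* difference was not tested.

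Per length, in the authors' FPKM (fragments scaled for transcript length and library size), *Fabp4* was the most abundant of the 10 in both genotypes (495 ± 1.88 in WT and 337 ± 9.0 in Gpr174-/Y muscles, SD, n = 3) and *Lep* the least (0.577 ± 0.0814 and 0.657 ± 0.143). In WT the order below *Fabp4* was *Cfd* (112), *Scd1* (34.4), *Cebpa* (17.8), *Adipoq* (15.8), *Cidec* (7.28), *Pparg* (7.25), *Plin1* (4.29) and *Retn* (3.89). Among neighbours, *Cebpa* and *Adipoq*, *Cidec* and *Pparg*, and *Plin1* and *Retn* overlapped between libraries. In Gpr174-/Y muscles the FPKM order was *Cfd* (140), *Scd1* (54.1), *Adipoq* (35.6), *Cebpa* (35.0), *Cidec* (11.6), *Plin1* (9.35), *Pparg* (8.65) and *Retn* (2.56). There *Scd1* overlapped with *Adipoq*, *Adipoq* with *Cebpa*, *Cidec* with *Plin1* and *Plin1* with *Pparg*.

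The ratio of each gene to *Adipoq* within a library, which does not depend on how libraries are scaled, shows which genes kept step with this marker. For *Plin1* the log2 ratio of counts was -1.13, -1.17 and -1.38 in WT and -1.34, -1.30 and -1.26 in Gpr174-/Y libraries, a difference of -0.07 with overlapping groups (2-sided exact permutation test, p = 0.4). *Cebpa* also overlapped, with log2 ratios of 1.37, 1.33 and 1.23 in WT and 1.48, 1.2 and 0.73 in Gpr174-/Y libraries. The difference was -0.18 (exact p = 0.6). The Gpr174-/Y ratios of *Cebpa* lay on both sides of the WT range, so this overlap does not show that it kept step. The other 7 ratios were lower in every Gpr174-/Y library than in any WT library (exact p = 0.1 for each, the smallest that 3 libraries against 3 allow). The exact test takes the libraries as independent and exchangeable, which is in doubt for replicate 2, so these p values may be too small. The differences were -0.52 for *Cidec*, -0.58 for *Scd1*, -0.82 for *Cfd*, -0.94 for *Pparg*, -1.0 for *Lep*, -1.62 for *Retn* and -1.72 for *Fabp4*. Relative to *Plin1*, the same 7 genes were lower without overlap, from -0.45 for *Cidec* to -1.65 for *Fabp4*, and *Cebpa* differed by -0.11 (exact p = 0.7). All 9 ratios to *Adipoq* share its counts, so they are not separate tests.

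**Figure D2:**
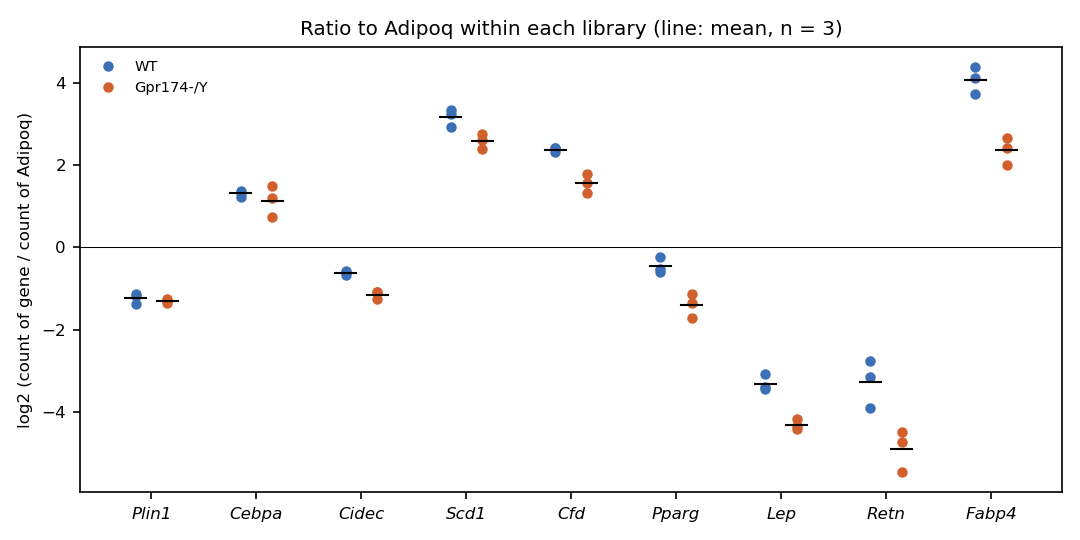
Log2 ratio of the count of each fat cell gene to the count of Adipoq in the same library (y axis), for 3 WT (blue) and 3 Gpr174-/Y (orange) libraries, with a line at the mean. Only Plin1 and Cebpa overlap between the groups, and the other 7 genes are lower relative to Adipoq in all Gpr174-/Y libraries.

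The gene nearest to *Adipoq* in its pattern over the 6 libraries among the other fat cell genes was *Plin1*, which ranked 2 of 13635 genes by the root mean square difference of centred log2 CPM (0.087). *Cebpa* ranked 692 (0.238), *Cidec* 1106, *Scd1* 2103, *Cfd* 4244, *Lep* 6546, *Pparg* 6638, *Fabp4* 12459 and *Retn* 12473. The 8 nearest genes outside the 10 were *Rgs14* (0.077), a regulator of G protein signalling, *Gm52481* (0.090), *Ms4a4a* (0.095), a membrane protein, *Stx11* (0.095), a syntaxin, *Pde1b* (0.099), a cyclic nucleotide phosphodiesterase, *Dock2* (0.10), an activator of Rac in leukocytes, *Tifa* (0.103), an adaptor of TRAF proteins, and *Slc44a4* (0.105), a choline transporter-like protein. Their CPM ranged from 0.622 in *Slc44a4* (WT replicate 1) to 54.1 in *Dock2* (Gpr174-/Y replicate 3). With 6 libraries and 2 groups, genes with a like fold and a like order of replicates come near each other by construction.

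*Pparg* did not pass as a gene in the edgeR test, while the estimated division of its reads between transcripts stood apart between the genotypes. Isoform 2, the form made mainly in fat cells, starts at 115422066 on chromosome 6 (GRCm38) and encodes 505 amino acids, against 475 for the other 3 curated transcripts. Its transcript (NM_011146.3) was given 19.93, 14.85 and 0 estimated counts in WT and 68.47, 62.2 and 106.5 in Gpr174-/Y libraries. As a share of *Pparg* counts this was 8.48%, 6.48% and 0% against 23.5%, 20.3% and 34.1%. All Gpr174-/Y libraries were above all WT libraries, with a mean of 4.99% ± 4.43 in WT and 26.0% ± 7.25 in Gpr174-/Y muscles (SD, n = 3), a difference of 21.0 percentage points (2-sided exact permutation test, p = 0.1, the smallest possible). The WT shares rest on at most 19.93 estimated counts. Here too the exact test takes the libraries as independent and exchangeable, which is in doubt for replicate 2. The transcript starting at 115362292 (NM_001308354.1) went the other way, with 42.5%, 42.4% and 31.6% in WT and 18.2%, 23.8% and 24.2% in Gpr174-/Y libraries (exact p = 0.1). *Pparg* has 11 transcripts in the table, 7 of them predicted, and 3 of the 11 shares did not overlap between the groups.

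**Figure D3:**
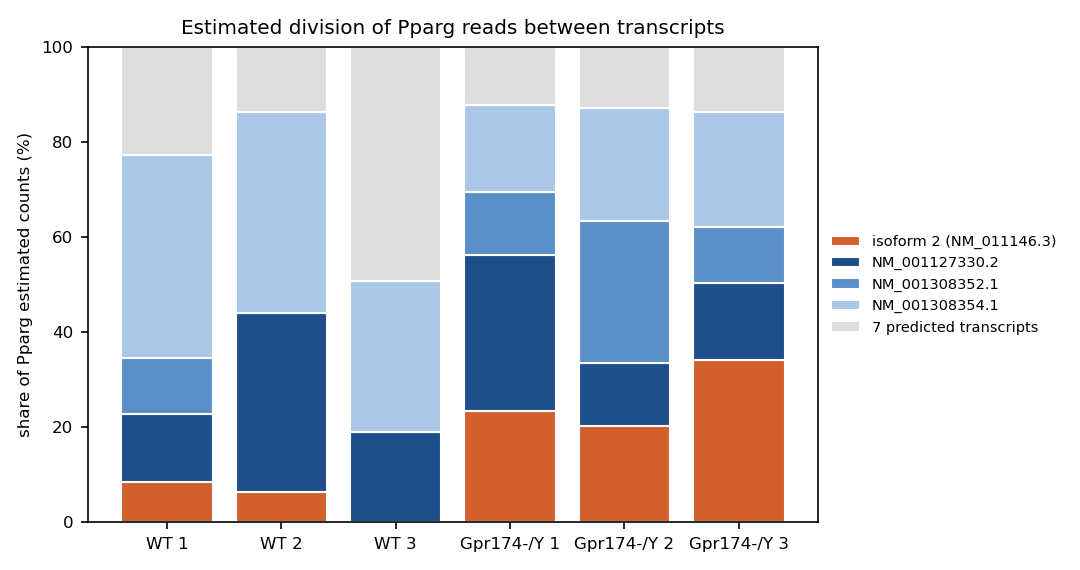
Share of the estimated Pparg counts (y axis, percent, bars from 0) given to isoform 2 (orange), to the other 3 curated transcripts (blues) and to 7 predicted transcripts together (grey) in each library. Isoform 2 takes 0% to 8.48% in WT and 20.3% to 34.1% in Gpr174-/Y libraries.

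These divisions are estimates by the counting program and were not stable for every gene. Between transcripts of *Cidec*, NM_001301295.1 was given 83.4%, 0% and 0% of the counts in WT libraries and 100%, 46.8% and 17.6% in Gpr174-/Y libraries, a swing within each group as large as the scale itself. The 5 transcripts of *Cebpa* were each given 20% in every library, so they were not told apart at all. *Adipoq*, *Lep* and *Scd1* have 1 transcript each, and *Cfd* was divided alike in all libraries, with 54.4% to 57.7% on NM_001291915.2. *Pparg* shares also swung within a genotype: NM_001127330.2 was given 14.3%, 37.5% and 19.1% in WT and 32.7%, 13.3% and 16.2% in Gpr174-/Y libraries. The predicted XM_011241252.1 was given 0%, 0% and 19.9% in WT libraries. The values of *Pparg* transcripts are therefore printed as a description.

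The paralogues of the fat cell genes stood on both sides of 0 within most families. Of 23 paralogues 16 could be tested (*Fabp2* and *Retnlb* had no row, and *Fabp1*, *Fabp7*, *Cideb*, *Retnlg* and *Cebpe* were removed as too low). Of the 16, 3 were higher and 9 lower (median log2 fold change -0.36), beside 27.0% and 27.6% of all genes. With total counts 6 were higher and 6 lower (median -0.08). Among perilipins, *Plin2*, which coats small droplets in most cells including macrophages, was higher (0.64, edgeR adjusted p = 0.00355), as was *Plin3* (0.33, 0.00257). *Plin4*, on droplets of fat and muscle (-1.05, edgeR adjusted p = 0.00588), and *Plin5*, on droplets next to muscle mitochondria (-2.22, 0.00112), were lower. The 5 perilipins thus lay on both sides of 0. *Plin5* had the largest difference, at 6.78, 5.65 and 3.76 CPM in WT and 1.1, 1.13 and 1.21 CPM in Gpr174-/Y libraries.

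Fatty acid binding proteins were divided as well. The muscle form *Fabp3* measured 311, 282 and 261 CPM in WT and 136, 128 and 116 CPM in Gpr174-/Y libraries, a fold of 2.24 lower (log2 -1.17, edgeR adjusted p = 0.000566). *Fabp5*, the form of skin and macrophages, measured 59.2, 66.5 and 72.7 CPM in WT and 133, 127 and 128 CPM in Gpr174-/Y libraries, 1.96-fold higher (log2 0.97, edgeR adjusted p = 0.000634). *Fabp4* and *Fabp3* were therefore lower and *Fabp5* higher, with no overlap between genotypes for any of the 3. Skin keratinocyte markers summed to at most 4.11 CPM, *Krt14* had no count in 5 libraries and *Krt5* had at most 0.357 CPM.

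Among the remaining families, the desaturases *Scd2* (log2 fold change 0.03) and *Scd4* (0.20) did not pass, and *Scd3*, at 0.191 to 0.996 CPM, was lower (-1.28, edgeR adjusted p = 0.0165). *Cidea*, a droplet protein of brown fat (-0.58), and *Retnla*, a resistin-like factor of alternatively activated macrophages (-1.11, adjusted p = 0.0141), were lower. *Ppara*, the regulator of fatty acid oxidation, was 2.76-fold lower (log2 -1.47, edgeR adjusted p = 0.000409), and *Ppard* did not pass (-0.09). Of the C/EBP family, *Cebpb*, which acts early in fat cell formation, was lower (-0.49, edgeR adjusted p = 0.00179), *Cebpg* was slightly lower (-0.23, 0.0169) and *Cebpd* did not pass (0.23, 0.144). The directions of *Cebpg* and *Ppard* turned positive with total-count scaling and with FPKM.

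**Figure D4:**
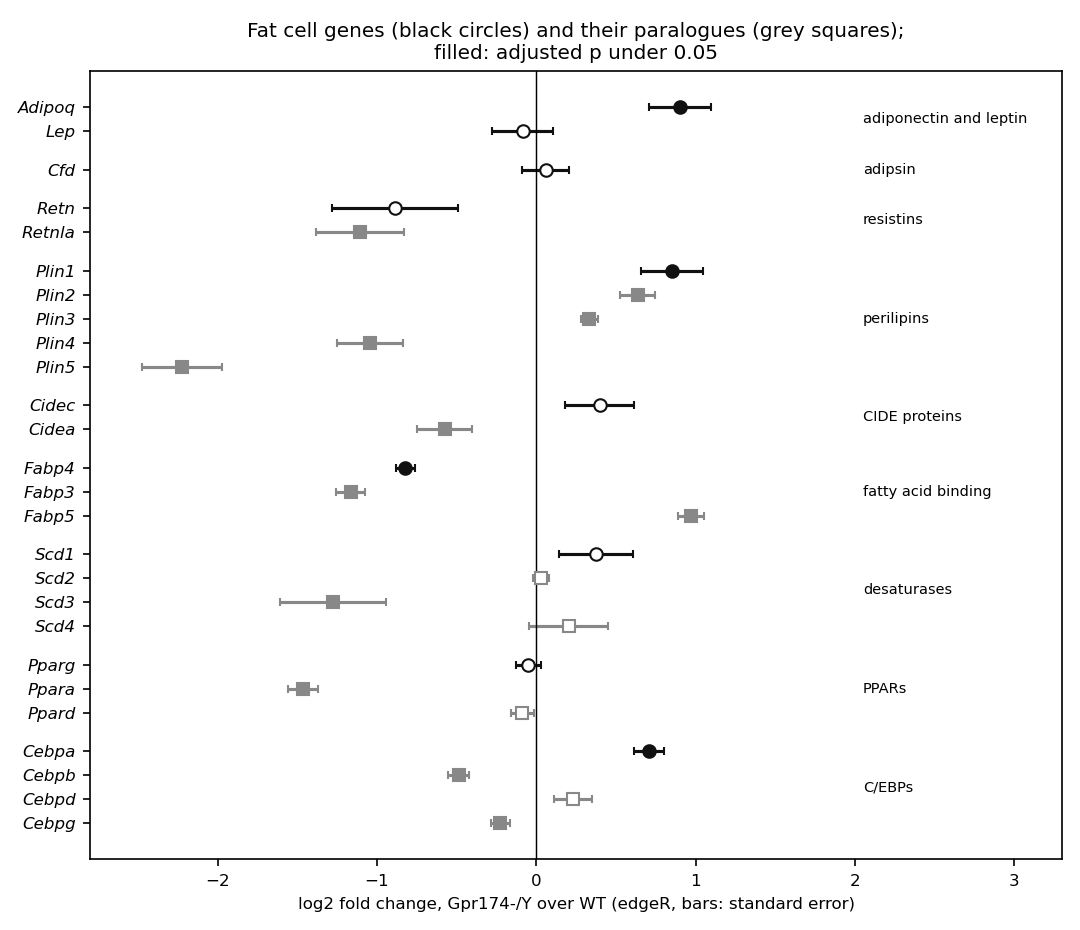
Log2 fold change (x axis, Gpr174-/Y over WT, edgeR, bars are the standard error) of the fat cell genes (black circles) and their tested paralogues (grey squares) by protein family, filled where the adjusted p was under 0.05. Members of the perilipin, fatty acid binding and C/EBP families lie on both sides of 0 under TMM scaling, and the negative values of Ppard and Cebpg turn positive with total-count scaling or FPKM.

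The lists of fat storage, lipogenesis, and uptake and hormone response had negative medians under TMM scaling. Their calls stand beside 27.0% higher and 27.6% lower among all genes. Of 16 genes of fat storage and lipolysis 9 were lower and 2 higher (median log2 fold change -0.70). The differences were led by the glycerol channel *Aqp7* (-1.52), glycerol-3-phosphate dehydrogenase *Gpd1* (-1.43) and monoglyceride lipase *Mgll* (-1.06). The 2 higher were *Bscl2* (0.45) and *Agpat2* (0.38). Of 10 lipogenic genes 5 were lower and 3 higher (median -0.33). The largest differences were all lower: the transcriptional regulators *Mlxipl* (-1.28) and *Thrsp* (-1.22), malic enzyme *Me1* (-1.07) and the acyl-CoA synthetase *Acsl1* (-0.75). The 3 higher were *Acly* (0.54), *Elovl6* (0.46) and *Fasn* (0.19), each without overlap between genotypes. Of 9 genes of uptake and hormone response 6 were lower and 1 higher (median -0.30), among them the insulin-responsive glucose transporter *Slc2a4* (-1.43), the insulin receptor substrate *Irs1* (-0.68) and caveolin *Cav1* (-0.64), whereas the phosphodiesterase *Pde3b* was higher (0.64). These lists hold genes that muscle fibres and endothelium also use, and mature fibre markers were lower in all 12 of 12 cases, with sums of 125000 to 179000 CPM in WT and 55500 to 62100 CPM in Gpr174-/Y libraries. Their largest falls were in *Myh2* (-2.8), *Pvalb* (-2.34), *Mb* (-2.02) and *Myh1* (-1.76). The part of fibre RNA in these lists was not tested. With total counts the medians of the 3 lists were -0.42, -0.05 and -0.03, with 9, 5 and 3 genes lower and 4, 4 and 1 higher, beside a median of 0.28 over all genes.

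The regulators of fat cell formation were divided. Of 11 other activators 3 were higher and 2 lower (median 0.06), or 6 and 1 with total counts, with *Klf5* (0.92) and *Egr2* (0.64), which act early, higher, and *Klf15*, which is also a muscle regulator, lower (-1.02). *Rxra*, the partner of PPARγ on DNA, did not pass (-0.32, edgeR adjusted p = 0.0586). Of 5 inhibitors 3 were lower and none higher, or 2 and none with total counts: *Dlk1* (preadipocyte factor 1) measured 168, 169 and 163 CPM in WT and 86.0, 71.2 and 51.3 CPM in Gpr174-/Y libraries (log2 fold change -1.26, edgeR adjusted p = 0.00175), *Ddit3* fell by 0.50 and *Gata2* by 0.41 on the log2 scale. *Dlk1* is also made in regenerating muscle, where 6 of 9 regenerating fibre markers were higher and none lower, led by *Mymx* (1.84), *Chrng* (1.68), *Mymk* (1.46) and *Myog* (1.42). Those 9 markers summed to 6520 to 8540 CPM in WT and 7550 to 9440 CPM in Gpr174-/Y libraries. Markers of fibro-adipogenic progenitors were lower in 7 of 8 cases and higher in none, among them *Pi16* (-1.12), *Cd34* (-1.04), *Lum* (-0.81) and *Col15a1* (-0.80), with sums of 2010 to 2210 CPM in WT and 1280 to 1320 CPM in Gpr174-/Y libraries.

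Receptors of the fat cell hormones showed a like division. Of 6 genes 3 were lower and 1 higher, or 2 and 2 with total counts, where *Adipor1* did not pass. The adiponectin receptors *Adipor1* (318, 285 and 253 CPM in WT and 213, 211 and 201 CPM in Gpr174-/Y libraries) and *Adipor2* (138, 127 and 111 against 86.2, 86.3 and 90.3 CPM) were lower without overlap, by 0.45 and 0.52 on the log2 scale (edgeR adjusted p = 0.0061 and 0.00297). *Cdh13*, or T-cadherin, which holds adiponectin on endothelium and muscle, was also lower (-0.63, adjusted p = 0.0007). *Adipoq* and its 3 binding partners stood in opposite directions under TMM scaling. Mature fibre and most endothelial markers were lower as well, and the part of their RNA in these receptor differences was not tested. The leptin receptor *Lepr* was near 4 CPM in each library and did not pass (log2 fold change -0.01, edgeR adjusted p = 0.966), and the chemerin receptor *Cmklr1* was higher (0.40). Of 6 other secreted factors of fat cells, *Angptl4*, an inhibitor of lipoprotein lipase, was higher (0.98, edgeR adjusted p = 0.0212) and chemerin, *Rarres2*, was lower (-0.36, 0.00245, though not with total counts), and the remaining 4 did not pass.

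The defining marker of brown fat was not detected. *Ucp1* had 0, 1 and 2 counts in WT and 1, 0 and 0 in Gpr174-/Y libraries, at or under the detectable 3 counts in each. Of 5 brown and beige genes tested 4 were lower and 1 higher, led by *Cox8b* (-1.49), *Prdm16* (-1.07) and *Ppargc1a* (-1.0), of which muscle fibres also express *Cox8b* and *Ppargc1a*. With total counts 2 were lower and 1 higher.

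**Figure D5:**
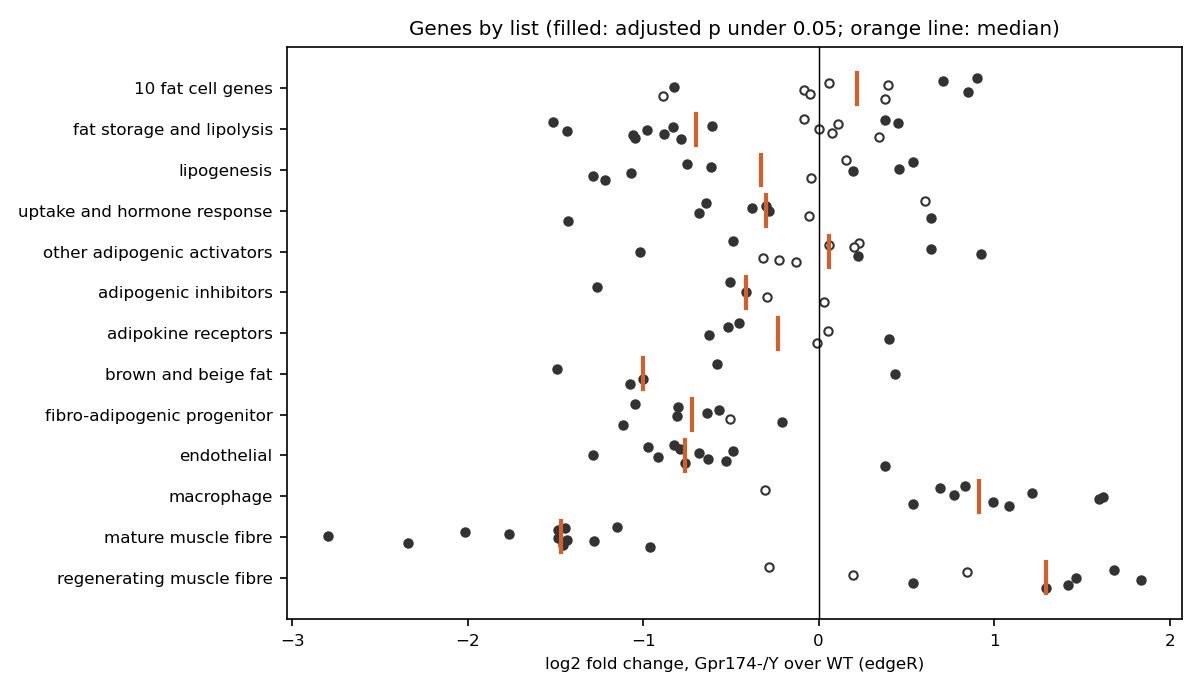
Log2 fold change (x axis, Gpr174-/Y over WT, edgeR) of every tested gene in each list, filled where the adjusted p was under 0.05, with the list's median as an orange line. The 10 fat cell genes spread over both sides of 0 around a median of 0.22, mature fibre markers are all negative (median -1.47), and macrophage markers are mostly positive (median 0.92).

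The 4 calls held their direction in each of 17 alternative settings and passed an adjusted p of 0.05 in 16 of them. The exception was the edgeR fit to replicates 1 and 3 of each group alone. In that fit *Adipoq* (edgeR adjusted p = 0.0961), *Plin1* (0.0934), *Cebpa* (0.0584) and *Fabp4* (0.0542) did not pass, nor did any other gene in the table. With fewer libraries it also has less power, so it cannot decide whether replicate 2 is independent. Leaving out single libraries moved *Adipoq* between 0.71 and 1.06, *Plin1* between 0.64 and 1.01, *Cebpa* between 0.63 and 0.82 and *Fabp4* between -0.85 and -0.78, all on the log2 scale. With total counts *Adipoq* stood at 1.17, *Plin1* at 1.13, *Cebpa* at 0.98 and *Fabp4* at -0.55, each on the same side of the median of all genes as with TMM factors.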

How the data were processed

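RNA-seq was made from ischemic gastrocnemius of 3 WT and 3 Gpr174-/Y mice, sequenced on BGISEQ-500 per the methods (the labels name an Illumina TruSeq kit). Per the submitters' processing notes, HISAT2 2.0.4, Bowtie2 2.2.5, RSEM 1.2.12 and GRCm39 were used. The authors deposited, for 58843 RefSeq transcripts, the expected count of each library without normalization, with FPKM and TPM scaled by the authors for length and depth. No column of other samples was present.

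Expected counts were summed per Entrez gene and rounded, and 99.73% of genes were named from the reference tables. Genes were compared with edgeR 4.0.16 in R 4.3.3 (TMM, filterByExpr, robust quasi-likelihood F-test, Benjamini-Hochberg over 14395 genes), and a call needed an adjusted p of 0.05. The larger call also needed an absolute log2 fold change of 1, as in the study, which used DEGseq, a test without a term for the spread between mice. The test was also run on simulated counts of independent libraries, which cannot show how it behaves if replicates are not independent. Ratios used a prior of 0.5 counts and exact permutation tests. Loci are from GENCODE M21 (GRCm38). Alternatives used DESeq2 1.42.0, limma 3.58.1 and other scalings, filters and libraries. The members, lists and motifs were chosen with earlier results of these data known. Named genes are the 10, their paralogues, the 4 largest differences among called genes of each other list, direct partners (*Lepr*, *Adipor1*, *Adipor2*, *Rxra*, *Cebpb*, *Cebpd*), and the 8 genes nearest to *Adipoq*. A member of the complement list is not reported here. *Cfb*, *Vwf*, *Krt14*, *Krt5*, *Ucp1*, *Acly*, *Elovl6*, *Fasn*, *Bscl2* and *Agpat2* were named after their values were seen.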

Additional observations from a re-analysis of the deposited data

How the results depend on the processing

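Of the 10 fat cell genes, 3 were called higher and 1 lower, and none passed both thresholds. Without each library in turn, the number called higher ranged from 3 to 5, the number called lower from 1 to 2 and the number past both thresholds from 0 to 2. In the fit to replicates 1 and 3 only, an alternative added once the data were seen, 0 were higher and 0 lower (3 and 1 at an unadjusted p under 0.05), and edgeR called 0 genes in all (5026 at an unadjusted p under 0.05, 1049 of them past the fold threshold). Past both thresholds stood 2 with total counts and with log2(FPKM + 0.1), and 1 with log2(FPKM + 1). Over all genes, 1192 passed both, 646 with log2(FPKM + 1), and 924 to 1826 without each library, the highest without WT replicate 3.

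With the replicate number as a block, 4 were called higher, since *Cidec* passed (0.38, adjusted p = 0.0342), 1 lower, and 6812 genes in all against 7863. *Scd3* (0.0568), *Cidea* (0.0586) and *Retnla* (0.0512) lost their calls. The samples share only a number, since same-numbered samples are different mice whose deviations correlated at 0.008, 0.05 and 0.005.

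Some values near 0 turned sign. With total counts, log2(FPKM + 1) and log2(FPKM + 0.1), which moved the median of all genes to 0.28 and 0.20 in the first pair, *Lep* was 0.19, 0.07 and 0.15, *Pparg* 0.22, 0.23 and 0.26, *Cebpg* 0.05, 0.04 and 0.05, *Ppard* 0.19, 0.18 and 0.19, and *Lepr* 0.27, 0.14 and 0.28 (0.02 with upper-quartile scaling). *Pparg* and *Lepr* were called higher in both FPKM fits and *Ppard* in all 3. Leaving out single libraries gave ranges of -0.21 to 0.07 for *Lep* (0.01 without WT replicate 3), -0.07 to 0.23 for *Cfd* (lowest without WT replicate 1), -0.10 to 0.03 for *Pparg* and -0.03 to 0.06 for *Lepr*, and of -0.35 to 0.03 and -0.30 to 0.11 for the ratios of *Cebpa* to *Adipoq* and to *Plin1* (highest without Gpr174-/Y replicate 3). The cause was not tested. Of the values of single genes, 1300 kept direction and call, 124 lost and 15 gained a call, and 21 turned.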
